A study of Mus musculus with 6 samples.

Results

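The innate sensors of bacterial and viral products were examined in alveolar type II cells of Stat3Δ/Δ mice and littermate controls: the Toll-like receptors Tlr1 to Tlr7 and Tlr9, the co-receptor Cd14 and the adaptor Myd88. Every probe set that names 1 of these genes alone was taken, which gave 16 probe sets for 10 genes out of 18193 genes on the array. Stat3Δ/Δ mice carry 3 alleles, which are the SP-C-rtTA transgene, the (tetO)7CMV-Cre transgene and Stat3flx/flx. Doxycycline in the food of the dams turned Cre on through the surfactant protein C promoter, which is used by respiratory epithelium, so that part of Stat3 was deleted there before birth and other cells of the isolate keep the gene. By their labels the controls carry both transgenes, SP-C-rtTA and (tetO)7CMV-Cre, and the methods describe them as littermates without the deletion that hold Stat3flx/flx with either transgene. Mice were 8 weeks old, and the groups were matched in age and sex. There were 3 pools of each group, each made of the cells of 3 mice and read on 1 MOE430 array. Lungs were digested with collagenase and the cells cleaned by differential plating, and the methods name alveolar macrophages as the main cell type left beside type II cells. By the methods, which assessed purity by stain, neither the purity nor the number of type II cells differed between the groups.

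Toll-like receptors recognise conserved microbial molecules, at the cell surface for lipoproteins, lipopolysaccharide and flagellin, and in endosomes for nucleic acids. CD14 hands lipopolysaccharide to the complex of TLR4 with MD-2, and MYD88 carries the signal of all receptors of the family but TLR3 to the IRAK kinases and on to NF-kappaB. Alveolar macrophages and other myeloid cells carry most of these receptors, and type II cells are known to express some of them and to secrete antibacterial proteins and cytokines when they are engaged. STAT3 acts downstream of interleukin-6 and related cytokines that follow such signals.

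Stat3 itself was read by 4 probe sets, and the brightest gave signals of 26285, 20128 and 25650.1 in Stat3Δ/Δ pools 1 to 3 and 49489, 41544 and 35080.1 in control pools 1 to 3, which do not overlap. Its log2 fold change was -0.71 (standard error, SE, 0.26; limma, adjusted p = 0.533), a second gave -0.80, and the others -0.047 and 0.60, and their position with respect to the deleted part of the gene is unknown here. The type II cell markers Sftpc, Sftpb and Abca3 were bright on every array. The log2 fold change was -0.012 for the surfactant protein Sftpc, 0.028 for Sftpb and -0.73 for the lamellar body transporter Abca3. Of 13 measured type II markers 3 lay above 0 and 10 below, against 40.7% of all genes above 0. After normalization the groups did not overlap for 3 of them, all lower in Stat3Δ/Δ pools, against 10.2% of all genes. The 3' to 5' log2 ratio of the Actb control ran from 0.34 to 0.42 in Stat3Δ/Δ pools and from 0.47 to 0.81 in control pools, and that of Gapdh from -0.49 to -0.30 and from -0.24 to 0.27; its part in the results was not tested. Stat3Δ/Δ pools 1 and 2 and control pool 3 share the number that opens their titles. Its meaning is not stated in the labels or methods, and differences within these 3 arrays are given below as differences within the shared title number. Control pools 1 and 2 share another number, which no Stat3Δ/Δ pool carries, and Stat3Δ/Δ pool 3 has its own. Group and title number are thus partly confounded. A fit with the number as a fixed block takes its group difference from the same 3 arrays.

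None of the 16 probe sets passed the thresholds of the methods, which ask for a p no higher than 0.05, a false discovery rate (FDR) no higher than 10% and a fold no lower than 1.5, against 0.00222% of 45037 probe sets called higher and 0% called lower. Their adjusted p from limma ran from 0.604 to 0.984, and none had an unadjusted p of at most 0.05, against 8.45% of all probe sets. Without the FDR, at that p and fold, 0 were higher and 0 lower, against 4.14% and 4.22% of all probe sets. The largest differences were those of Tlr1 (log2 fold change 0.63), Tlr5 (-0.58), Tlr7 (0.58 for its brightest probe set), Cd14 (0.51) and Tlr2 (0.40). Tlr1 and Cd14 were the members whose groups did not overlap, both with higher signals in Stat3Δ/Δ pools. These are 2 of 16 probe sets, or 12.5%, against 5.99% of all probe sets that separate the groups in that direction; 0 separated them in the other, against 7.66%. Of the 16 log2 fold changes 8 lay above 0, against 48.3% of all probe sets. With each gene represented by its brightest probe set, 5 members lay above 0 and 5 below, against 40.7% of all genes above 0, with a median log2 fold change of -0.029, against -0.085 over all genes. Fold changes are differences of log2(signal + 69.9) after quantile normalization, a scale that understates the change of dim probe sets. The deposited table holds no detection calls, so whether a dim probe set was above background is not known.

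**Figure D1:**
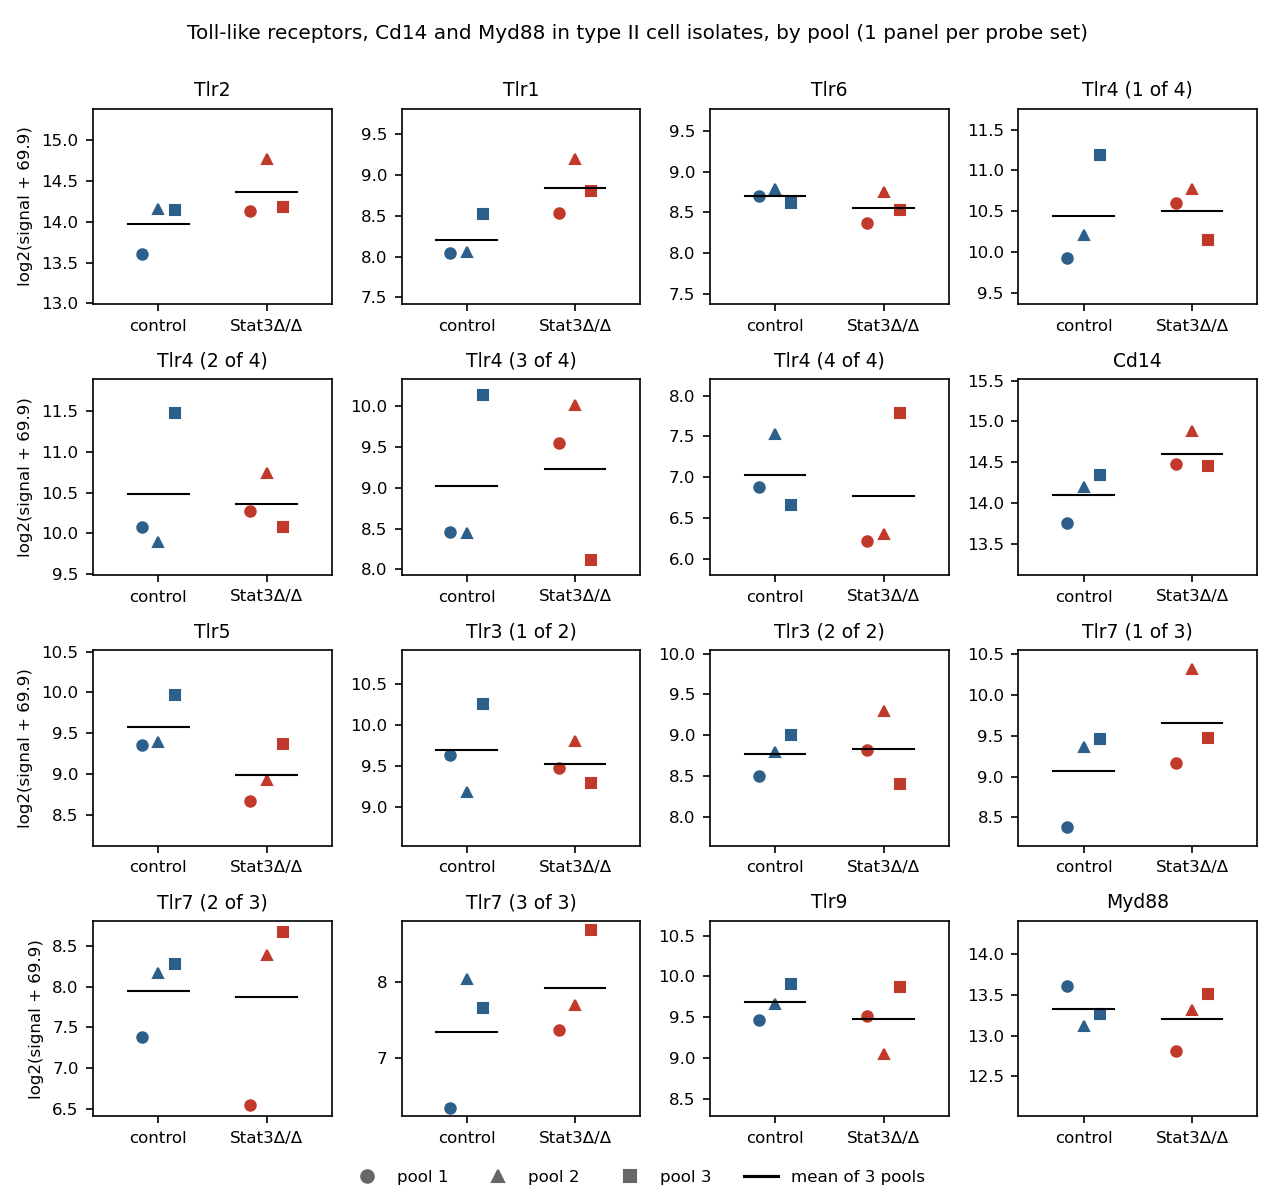
Each panel shows 1 probe set, with log2(signal + 69.9) after quantile normalization on the vertical axis, which has its own range in each panel and spans at least 2.4 units; symbols mark pools 1 to 3 of control and Stat3Δ/Δ cells and bars the mean of 3 pools. The groups are separate for Tlr1 and Cd14, while 3 of the 4 probe sets of Tlr4 are highest in control pool 3.

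TLR2 recognises bacterial lipoproteins and pairs with TLR1 for triacylated and with TLR6 for diacylated forms. The single probe set of Tlr2 (1419132_at) gave signals of 16592, 27092 and 19181 in Stat3Δ/Δ pools 1 to 3 and of 13119, 18540.2 and 17321 in control pools 1 to 3. Stat3Δ/Δ pool 2 was the highest array and control pool 1 the lowest, and the other four lay together. Its log2 signal was 14.36 ± 0.36 (SD, n = 3) against 13.97 ± 0.31 (SD, n = 3), a log2 fold change of 0.40 (SE 0.30, limma adjusted p = 0.747). It was 0.19 with Stat3Δ/Δ pool 2 omitted and 0.22 with control pool 1 omitted. Tlr1 (1449049_at) gave signals of 344.6, 544.2 and 375.2 in Stat3Δ/Δ pools and 163.6, 179.2 and 322.7 in control pools. Each Stat3Δ/Δ pool was above each control pool, but pool 1 and control pool 3 were close. The log2 fold change was 0.63 (SE 0.29, limma adjusted p = 0.604), with a 95% interval from -0.022 to 1.29. It was 0.34 within the shared title number and lay between 0.45 and 0.79 when any single pool was omitted. For Tlr6 (1421352_at) the signals were 298.2, 376.9 and 302.0 in Stat3Δ/Δ pools and 293.0, 342.0 and 345.3 in control pools, with full overlap. Its log2 fold change was -0.15, with a 95% interval from -0.71 to 0.41.

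TLR4 is the receptor of lipopolysaccharide from Gram-negative bacteria. Cd14 (1417268_at) gave signals of 21026, 29140.0 and 23108 in Stat3Δ/Δ pools 1 to 3 and 14804, 19057 and 19967 in control pools 1 to 3. The lowest Stat3Δ/Δ pool lay just above the highest control pool, and control pool 1 was the lowest of the 6 arrays. The log2 signal was 14.60 ± 0.24 (SD, n = 3) against 14.10 ± 0.30 (SD, n = 3), and the log2 fold change was 0.51 (SE 0.27, limma adjusted p = 0.663), with a 95% interval from -0.12 to 1.14. It was 0.34 within the shared title number and lay between 0.34 and 0.63 when any single pool was omitted. Tlr4 itself was measured by 4 probe sets, whose log2 fold changes were 0.061, -0.12, 0.21 and -0.25. The brightest (1418163_at) gave 1530.4, 1707 and 1047 in Stat3Δ/Δ pools and 807.6, 1112.5 and 2293.5 in control pools. Control pool 3 was the highest of the 6 arrays for it and lay 1.12 above the mean of the other controls on the log2 scale, and for the next probe sets by brightness (1418162_at and 1442827_at) this distance was 1.49 and 1.69. For 1442827_at a set of 3 arrays stood above the rest, with signals of 734.3, 992.1 and 1111.0 in Stat3Δ/Δ pools 1 and 2 and control pool 3, which share a title number, against 212.8 to 256.3 on the others. Within that number the log2 fold changes of the 4 probe sets were -0.50, -0.97, -0.36 and -0.40. The dimmest (1430695_at) was at or under the pseudocount of 69.9 on 4 of 6 arrays.

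TLR5 recognises flagellin. Its single probe set (1450242_at) gave 383.6, 438.4 and 578.4 in Stat3Δ/Δ pools 1 to 3 and 497.4, 575.4 and 988.4 in control pools 1 to 3. Stat3Δ/Δ pools 1 and 2 were the lowest arrays, pool 3 lay among the controls, and control pool 3 was the highest. The log2 signal was 8.99 ± 0.35 (SD, n = 3) in the deleted group and 9.57 ± 0.35 (SD, n = 3) in the control group, which differ by -0.58 (SE 0.30, limma adjusted p = 0.652). The 95% interval ran from -1.27 to 0.11. Within the shared title number the difference was -1.17, while Stat3Δ/Δ pool 3 less control pools 1 and 2 was -0.0067. With the title number as a fixed block the value of Tlr5, -1.17, had an adjusted p of 0.798 in limma, and the members past the unadjusted p and the fold there were Tlr5 and 1418162_at of Tlr4, at -0.97, where 3.06% of all probe sets were lower by the same rule. Without control pool 3 the value of Tlr5 was -0.38.

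TLR3, TLR7 and TLR9 recognise double-stranded RNA, single-stranded RNA and unmethylated CpG DNA in endosomes. The brighter probe set of Tlr3 (1422782_s_at) gave 702.2, 853.7 and 545.3 in Stat3Δ/Δ pools and 629.6, 480.8 and 1216 in control pools. Control pool 3 was again the highest array, and the log2 fold changes of the 2 probe sets were -0.17 and 0.070, of opposite sign. The brightest probe set of Tlr7 (1422010_at) gave 562.4, 1238 and 628.2 in Stat3Δ/Δ pools and 224.4, 562.8 and 682.5 in control pools. Stat3Δ/Δ pool 2 and control pool 1 were the extremes, as for Tlr2, and the log2 fold change was 0.58 (SE 0.41, limma adjusted p = 0.732). It was 0.25 when Stat3Δ/Δ pool 2 was omitted and 0.24 when control pool 1 was omitted. The other probe sets of Tlr7 (1449640_at and 1419848_x_at) gave -0.074 and 0.57, with an SD within a group of up to 1.15 (n = 3) on the log2 scale. Both were dim. Each was at or under the pseudocount on 1 array and under the median signal of the array on 5 of 6. For Tlr9 (1422083_at) the signals were 719.7, 488.9 and 858.2 in Stat3Δ/Δ pools and 550.7, 725.4 and 948.9 in control pools, which overlap. Its log2 fold change was -0.20 (SE 0.29, limma adjusted p = 0.884).

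Myd88 (1419272_at) gave signals of 7090.6, 10012 and 11782 in Stat3Δ/Δ pools 1 to 3 and 13200, 8856.4 and 9486.7 in control pools 1 to 3. The highest array was control pool 1 and the lowest Stat3Δ/Δ pool 1, and the other arrays of both groups lay between them. The log2 signal was 13.21 ± 0.36 (SD, n = 3) in the deleted group and 13.33 ± 0.25 (SD, n = 3) in the control group, which differ by -0.12 (SE 0.29, limma adjusted p = 0.938). The 95% interval, from -0.78 to 0.54, holds changes in either direction.

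Because the study asks which genes depend on STAT3, the promoter windows of the members were read for the palindromic STAT element TTCNNNGAA and for the interferon-stimulated response element (GAAA, any 2 bases, GAAA), on both strands. RefSeq (GRCm38.p6) windows from 250 bases before to 50 after the start site were at hand for 7 of the 10 genes, with 9 windows in all; Tlr4, Tlr7 and Cd14 were not analysed here. The STAT letters stood in 3 of the 9 windows, against 8.3% of 32851 windows of all genes, and the interferon element in 2, against 3.44%. The 3 windows with STAT letters are shown, 5' to 3', with the matches in capitals. That of Myd88 is chr9:119339969-119340268 on the minus strand, and its STAT match begins 46 bases before the start site and overlaps a match to the interferon element that begins 40 bases before it. That of Tlr1, the second of its 2 windows, is chr5:64932650-64932949 on the minus strand, with the match 228 bases before the start. That of Tlr6, also the second of 2, is chr5:64959999-64960298 on the minus strand and holds 2 matches, which begin 3 bases before and 7 bases after the start.
Myd88 promoter: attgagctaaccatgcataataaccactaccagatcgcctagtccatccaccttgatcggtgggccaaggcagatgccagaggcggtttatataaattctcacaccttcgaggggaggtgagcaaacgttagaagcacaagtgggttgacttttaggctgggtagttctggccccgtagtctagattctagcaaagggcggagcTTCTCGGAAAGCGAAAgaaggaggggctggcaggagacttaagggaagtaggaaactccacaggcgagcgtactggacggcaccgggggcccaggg
Tlr1 promoter: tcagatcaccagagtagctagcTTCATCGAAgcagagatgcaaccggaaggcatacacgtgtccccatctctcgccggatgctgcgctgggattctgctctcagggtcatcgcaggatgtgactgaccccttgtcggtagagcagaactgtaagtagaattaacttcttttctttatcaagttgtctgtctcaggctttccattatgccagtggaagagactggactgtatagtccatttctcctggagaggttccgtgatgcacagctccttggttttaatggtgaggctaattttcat
Tlr6 promoter: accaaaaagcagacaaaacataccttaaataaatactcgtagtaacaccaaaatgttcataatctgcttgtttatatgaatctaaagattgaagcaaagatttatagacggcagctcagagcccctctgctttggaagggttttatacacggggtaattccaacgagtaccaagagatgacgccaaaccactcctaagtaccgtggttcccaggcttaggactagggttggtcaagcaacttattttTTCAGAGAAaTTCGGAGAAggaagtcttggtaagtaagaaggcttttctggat
The genes behind these windows had log2 fold changes of -0.12 for Myd88, 0.63 for Tlr1 and -0.15 for Tlr6, and no change of any of them passed the test. A match of letters is a description and not evidence of binding.

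**Figure D2:**
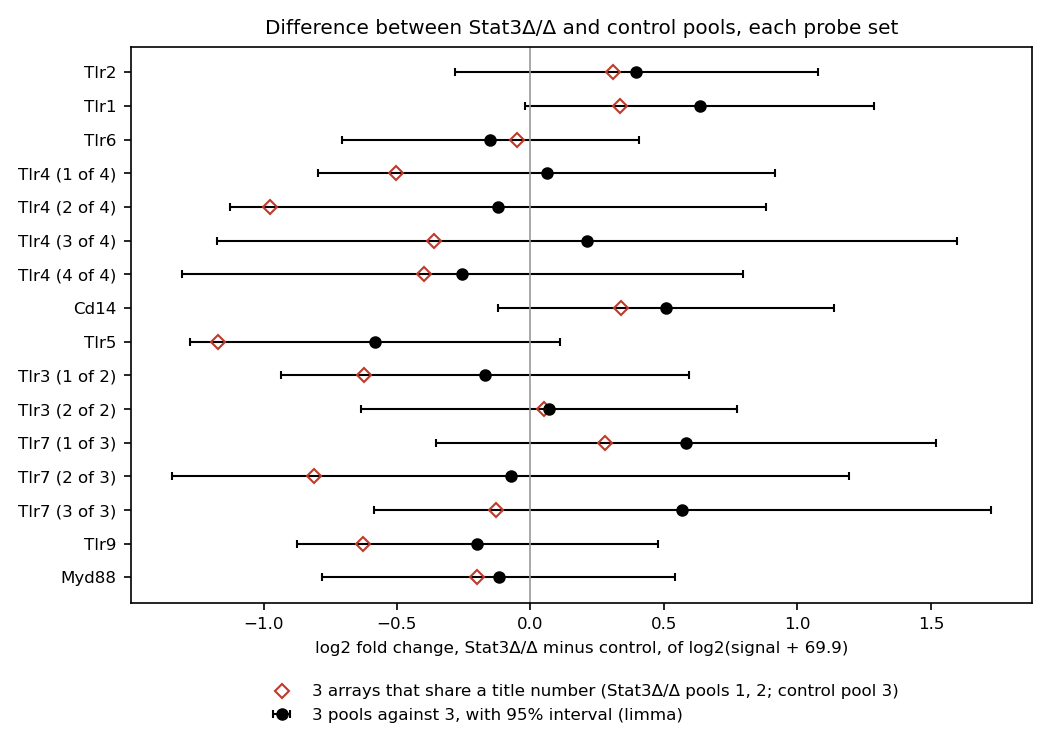
Log2 fold change of each probe set, Stat3Δ/Δ minus control, as a filled point with its 95% interval from limma over 3 pools against 3, and as an open diamond within the 3 arrays that share a title number. Every interval includes 0, and 11 of the 16 diamonds lie below 0.

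Within the shared title number 5 of the 16 probe sets lay above 0, against 8 over all arrays, and the median over member genes was -0.13, against -0.048 over all genes. Tlr2, Tlr1, Cd14 and the brightest probe set of Tlr7 stayed above 0 there, while Tlr5, Tlr9, the brighter probe set of Tlr3 and all 4 of Tlr4 were below. Stat3Δ/Δ pool 3 less control pools 1 and 2, which carry other numbers, had a median of 0.23 over member genes. Each of these contrasts holds a single array on one side. Over all arrays, 6 of the 16 probe sets kept the sign of their log2 fold change in every alternative setting that measured them, namely those of Tlr2, Tlr1, Tlr6, Cd14 and Tlr5 and the brightest of Tlr7. The filter on dim probe sets, the methods' t-test, the intensity trend and the block on pool number leave the log2 fold change as it is. Its sign could not change in those settings, and the others reuse the same arrays. The filter on dim probe sets kept 11 of the 16 and left out those of Tlr1 and Tlr6, so it gives no value for these genes.

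Tlr2, Tlr1 and Cd14 are also carried by leukocytes, and in RNA from an isolate more leukocytes and more RNA per cell cannot be told apart. Among 14 measured markers of alveolar macrophages, 12 had a log2 fold change above 0, against 40.7% of all genes, with a median of 0.48. For 6 of them each Stat3Δ/Δ pool was higher than every control pool, against 4.23% of all genes. The scavenger receptor Marco gave 0.75, the mannose receptor Mrc1 0.62 and Siglecf 0.045, and none of the list passed the FDR. The summed signal of the list ran from 228726 to 275878 in Stat3Δ/Δ pools and from 217574 to 232191 in control pools, and no marker was at or under the pseudocount on all arrays. Most of this sum came from the brightest genes of the list, Lyz2 (log2 fold change -0.047) and Chil3 (0.54), so it says little of the other markers. The mean signal of Lyz2 was 105386 in Stat3Δ/Δ pools and 118077 in control pools, close to that of the type II marker Sftpc (106728 and 117424). Which cells of the isolate gave the signal of Lyz2 was not tested. Relative to the mean of the 6 arrays, the median macrophage marker was highest in Stat3Δ/Δ pool 2 (0.61 on the log2 scale) and lowest in control pool 1 (-0.38). Tlr2 was at 0.61 and -0.56 on these arrays, Cd14 at 0.53 and -0.59 and Tlr1 at 0.67 and -0.49. On the other 4 arrays the macrophage list lay between -0.060 and 0.030 and Tlr2 between -0.033 and 0.020, while Cd14 ran from -0.16 to 0.13 and Tlr1 from -0.47 to 0.27.

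Markers of monocytes and dendritic cells had a median log2 fold change of 0.56 over 10 genes, 9 above 0 and 1 below, against 40.7% of all genes above 0. After normalization the groups did not overlap for 2 higher and 1 lower, against 4.23% and 10.2% of all genes. The 2 higher were Ccr7 (0.81) and Xcr1 (0.62), the latter under the median signal of the array on all 6 arrays. The lower was the monocyte marker Ccr2 (-0.77), with 1.17 for another of its 4 probe sets. The summed signal ran from 30500.2 to 54256 in Stat3Δ/Δ pools and from 21858 to 39137 in control pools. Csf1r, the brightest gene of this list, gave 0.31 with overlap, and -0.15 within the shared title number. Markers of neutrophils had 0.43 over 12 genes, with sums from 32612 to 38353 and from 20571 to 25880.1. Of these 12, 7 lay above 0 and 5 below, against 40.7% of all genes above 0. For 4 of them signals were higher in each Stat3Δ/Δ pool than in every control pool, against 4.23% of all genes. The list ran from 1.88 for the calgranulin S100a9, with its partner S100a8 at 1.68, to -0.87 for lactoferrin (Ltf), with the elastase Elane at -0.35. Elane was under the median signal of the array on 5 of 6 arrays, as were Camp (-0.061) and Cxcr2 (-0.0052). Prtn3 (-0.050) and Mpo (0.62) were under it on all 6. Markers of B cells had 0.27 over 9 genes, with Cd79a at 0.47 and sums from 10938 to 21130 in Stat3Δ/Δ pools and from 8285.9 to 22019 in control pools. Markers of T and NK cells had -0.10 over 11 genes, 5 above 0 and 6 below, against 40.7% of all genes above 0. The T cell receptor subunit Cd3e gave -0.55, the NK cell receptor Klrd1 1.02 and the granzyme Gzma 1.04. The last 2 were past the unadjusted p and the fold, against 2.15% of all genes higher by that rule. The groups did not overlap for Klrd1, against 4.23% of all genes in that direction. The summed signal of the list was highest in control pool 2, without which the median was 0.65. With Stat3Δ/Δ pool 2 left out the medians were 0.30 for macrophages, 0.27 for monocytes and dendritic cells and 0.30 for neutrophils. The part of these cells in the levels of Tlr2, Tlr1 and Cd14 was not tested.

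**Figure D3:**
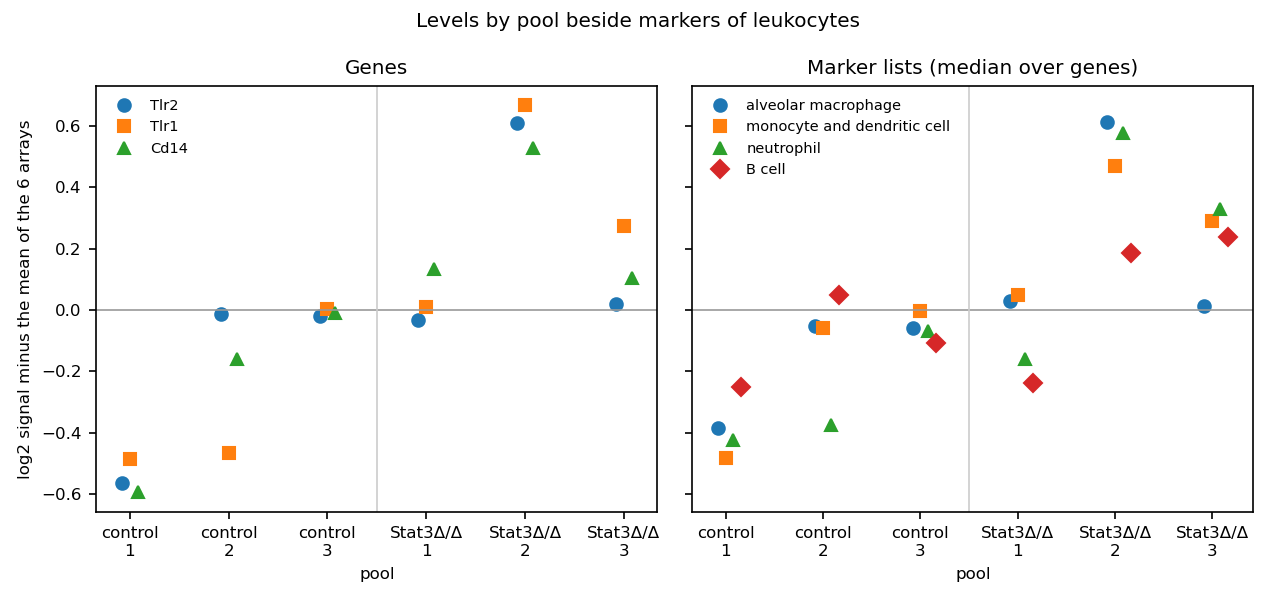
The vertical axis gives the log2 signal of each array minus the mean of the 6 arrays, for Tlr2, Tlr1 and Cd14 on the left and for the median of 4 lists of leukocyte markers on the right, by pool. Stat3Δ/Δ pool 2 is highest for the 3 genes and for the lists of macrophages, monocytes and dendritic cells and neutrophils, and control pool 1 is lowest for the 3 genes and for all 4 lists.

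Over 18193 genes, the pattern nearest to that of Tlr2 on the 6 arrays was that of Ctbs, a lysosomal chitobiase, with a root mean square difference of centred log2 signals of 0.042. Gpr135, an orphan receptor, followed with 0.079, and Syk, a tyrosine kinase of leukocyte receptors, with 0.080; Tlr2 itself deviated by 0.34 from its mean. Nearest to Cd14 were C130026I21Rik (0.088), the splicing factor Smndc1 (0.092) and Sla, an adaptor of leukocyte signaling (0.095), where Cd14 deviated by 0.34. These values are descriptions over 6 arrays.

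The other genes of the pathway were counted from a list of 50, of which 44 had a probe set that names them alone; Tlr11, Ticam2, Irak4, Traf3, Chuk and Nfkb1 are not analysed here. None passed the FDR (lowest adjusted p = 0.487 from limma). At an unadjusted p of at most 0.05 stood 4 of the 44, or 9.09%, against 7.81% of all genes. With the fold of 1.5 added, 2 were higher, or 4.55%, and 1 lower, or 2.27%, against 2.15% and 5.55% of all genes. The groups did not overlap for 5 genes with higher and 5 with lower signals in Stat3Δ/Δ pools, or 11.4% each, against 4.23% and 10.2% of all genes. The list's median log2 fold change was 0.067, against -0.085 over all genes. After median centring of the arrays it was -0.072, against -0.18 over all genes. Of the 44 genes 26 lay above 0, or 59.1%, and 18 below, against 40.7% of all genes above 0. For 12 of the 44 genes the probe sets differed in sign, so that the value depends on the probe set chosen.

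Among the other receptors, Tlr13, a sensor of bacterial ribosomal RNA, gave 0.79 (SE 0.30, limma adjusted p = 0.551). Its signals were 921.3, 1263 and 990.4 in Stat3Δ/Δ pools and 324.4, 622.0 and 760.2 in control pools, without overlap. Tlr8 gave 0.72 (SE 0.42, limma adjusted p = 0.690) and its pools overlapped. Of 5 co-receptors and ligand transfer genes 4 lay above 0, against 40.7% of all genes. The gene below 0 was Lbp, at -0.23 (SE 0.24, limma adjusted p = 0.824), and -0.24 within the shared title number. Its groups did not overlap, with lower signals in Stat3Δ/Δ pools, against 10.2% of all genes in that direction. Ly96, which encodes the MD-2 partner of TLR4, gave 0.036. The scavenger receptor Cd36, which also presents lipids to TLR2, gave 0.57 (SE 0.24, limma adjusted p = 0.585), and all 3 of its probe sets lay above 0.

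Of 4 adaptors 1 lay above 0 and 3 below, against 40.7% of all genes above 0. Ticam1, the adaptor of TLR3, gave -0.44 (SE 0.25, limma adjusted p = 0.685), with signals of 975.2, 1055.0 and 1096 in Stat3Δ/Δ pools and 1280, 1708 and 1244 in control pools. Tirap, which links TLR2 and TLR4 to MYD88, gave -0.25 for its brightest probe set and 0.46 for the other. Sarm1, an adaptor that restrains the TRIF route, gave -0.67 (SE 0.55, limma adjusted p = 0.774) with wide spread among the pools.

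Among 17 kinases and ubiquitin enzymes the ends of the range were Tab1 and Ikbke. Tab1, a subunit of the TAK1 kinase complex, gave 386.3, 361.0 and 502.2 in Stat3Δ/Δ pools and 677.4, 1017 and 785.1 in control pools, without overlap. Its log2 fold change was -0.97 (SE 0.27, limma adjusted p = 0.487), and that of its other probe set was -0.014. Ikbke, a kinase that phosphorylates interferon regulatory factors, gave 0.90 (SE 0.38, limma adjusted p = 0.583), and 0.31 within the shared title number. The kinase Irak1 gave -0.27 and the ubiquitin ligase Traf6 gave 0.072 for the brightest of 5 probe sets. Of 6 transcription factors 2 lay above 0, against 40.7% of all genes. Of 3 chaperones and trafficking proteins of the receptors, Unc93b1, which escorts the endosomal receptors, gave 0.29 and Hsp90b1, which folds most of the family, 0.11, while its co-chaperone Cnpy3 gave -0.39. Of 6 inhibitors 3 lay above 0 and 3 below, against 40.7% of all genes above 0. Irak3, a pseudokinase that blocks IRAK signals, gave 0.49 for its brightest probe set and 1.32 for the other. Tollip gave -0.24 for its brightest probe set and 0.99 for the other, of opposite sign. The receptor Sigirr gave -0.52 (SE 0.28, limma adjusted p = 0.666).

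**Figure D4:**
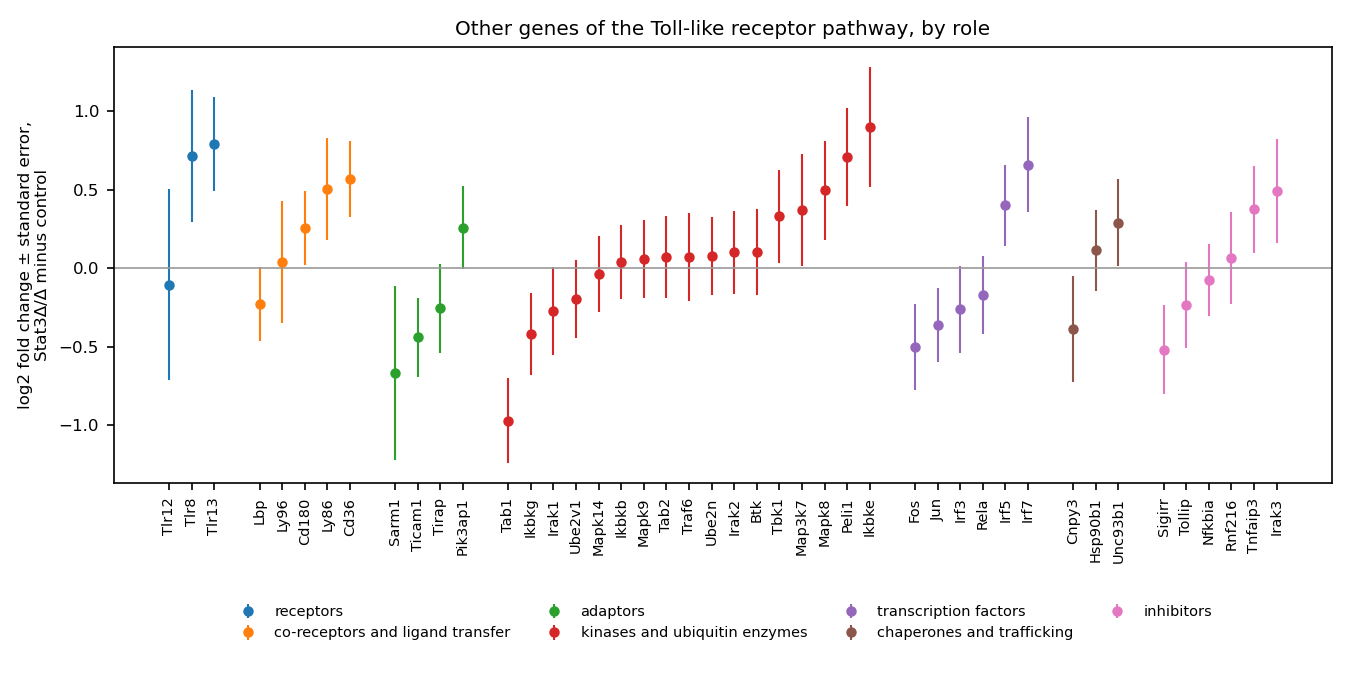
Log2 fold change, Stat3Δ/Δ minus control, of 44 pathway genes by their brightest probe set, with bars of 1 standard error from limma over 3 pools against 3, grouped by role and sorted within a role. Values run from -0.97 for Tab1 to 0.90 for Ikbke, and no gene passed the FDR.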

How the data were processed

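RNA from 3 pools of type II cells per group was hybridized to MOE430 arrays, 1 array per pool. The deposited table holds linear signal intensities from MAS5, per the labels, with a 2% trimmed mean of 1500.01 on every array; values from the Robust Multichip Average, which the methods name, were not used here. Pools were grouped by their titles. Of 45101 probe sets, 64 controls were left out. After adding 69.9 (the 20th percentile of the signals) values were log2 transformed and quantile normalized, and limma 3.58.1 in R 4.3.3 was fitted to 45037 probe sets with a term for the group; p-values were adjusted over all of these by the Benjamini-Hochberg method. Probe sets were named from the platform annotation, with 34945 naming 1 gene, 932 several and 9160 none, and a gene is shown by its brightest probe set. The arrays, 3 against 3, limit the precision, and p-values rest on the spread between pools. The fit was tested on simulated data, drawn as independent normal values. These hold no title number and no outlying pool, so they do not show what these arrays could call. Alternatives changed the pseudocount, normalization, filter, test, variance model, array weights, blocks, probe set and arrays left out. Named were the members and Stat3 with every probe set, 12 pathway genes and the 3 highest and 3 lowest of the list. Chosen cell type markers and the 3 genes nearest in pattern to Cd14 and to Tlr2 were also named. Cd36, Lbp, Cnpy3, Ltf, Elane, Camp, Cxcr2, Prtn3, Mpo, Klrd1, Gzma, Ccr2, Ccr7, Xcr1, Csf1r, Lyz2 and Chil3 were picked once their values had been seen. The members and lists were chosen with earlier results of these data known. Lists of fibroblasts, endothelium, ciliated, airway secretory and type I cells gave median log2 fold changes of -0.70, -0.31, -0.69, -0.54 and -0.010, and type II cells -0.053. Ticam2 and Irak4 are not analysed here. Tables were made in Python 3.11.15 with pandas 2.3.3 and plots with matplotlib 3.10.9.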

Additional observations from a re-analysis of the deposited data

How the results depend on the processing

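No member probe set passed the FDR under any of 17 alternatives (the filter on dim probe sets tested 11 of the 16), where the lowest adjusted p over the members was from 0.313 to 0.856; the number of arrays limits what such a test can call. Without the FDR, 1 member was higher with no normalization between arrays (Tlr1, against 5.15% of all probe sets), 2 with array weights (Tlr1 and Cd14, against 6.46%), and 2 were lower with the title number as a fixed block (Tlr5 and 1 probe set of Tlr4, against 3.06%). With 1 pool left out these counts ran from 0 to 1 in each direction: Tlr1 was higher without Stat3Δ/Δ pool 1 or control pool 3, against 2.74% and 6.50% of all probe sets, and Tlr5 lower without Stat3Δ/Δ pool 3, against 5.27%. With the FDR, over all probe sets, 1 was called in the main setting, 11 with the pseudocount at the median signal, 16 with the filter on dim probe sets, 13 with an intensity trend, 2 with array weights, 2 with arrays centred on their medians and 0 in the methods' t-test, with no pseudocount and with either fixed block. The median of the member genes, -0.029, was 0.17 with array weights and with 1 pool left out ran from -0.083 to 0.28, the highest without control pool 3. That of the pathway list, 0.067, was -0.072 with arrays centred on their medians, 0.16 with the title number as a fixed block and within the shared number, and 0.14 when a gene's probe sets were averaged. Stat3 gave -0.24 as the mean of its probe sets. The brightest probe set of Tlr4, 0.061, became -0.016 after median centring, -0.50 and -0.050 with the title number as a fixed and a random block, and lay between -0.19 and 0.44 when single pools were omitted, below 0 in 3 of 6 cases (-0.072 without Stat3Δ/Δ pool 2, and -0.19 and -0.057 without the first and the second control pool). Tlr3 turned to 0.076 with array weights and lay between -0.42 and 0.12 (the latter without control pool 3) when single pools were omitted, Tlr9 from -0.40 to 0.016 (the latter when Stat3Δ/Δ pool 2 was omitted), and Myd88 from -0.27 to 0.083, the latter in the absence of Stat3Δ/Δ pool 1, with 0.021 when control pool 1 was omitted. The cause of these moves was not tested. The replicate block, on pool numbers whose deviations correlate at -0.084, -0.0088 and -0.24, called 0 member probe sets, and the numbers were not taken to pair the samples.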
